A study of Mus musculus with 24 samples.

Results

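Of the promoters that were open in blood progenitors lacking both Daxx and Pu.1, 89.0% were open in every other progenitor population of the series as well. These shared promoter peaks were 10922 of the 12268 promoter peaks, and of all 22156 peaks, in the peak list of DKO KLS cells. Each is an interval of that list that lies within 1 kb of an annotated gene start site and overlaps, by at least 1 bp, a peak in each of the other 10 deposited lists. They were therefore chosen by the presence of peaks in these same lists, and their presence, width and strength are given as a description without a test.

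Open chromatin was profiled with ATAC-seq, where a transposase cuts and tags accessible DNA, in 24 libraries of cells sorted from the bone marrow of C57BL/6 mice. All mice carried 1 Cre allele (Cre +/-), the controls included. Daxx-WT mice were Daxx +/+, Daxx-KO mice were Daxx F/F with exons 2 to 7 floxed, and DKO mice were Daxx F/F and Pu.1 F/F. The Daxx-WT and Daxx-KO groups were long-term stem cells of the blood (LT-HSCs) and 2 of their progeny without a time label, the common myeloid progenitor (CMP) and the progenitor of granulocytes and monocytes (GMP), LT-HSCs at 3 days post induction of Cre (3 d.p.i.) and KLS cells, the Lin- Sca-1+ c-Kit+ fraction that holds stem cells and early progenitors, at 3 weeks (3 w.p.i.). The DKO group was KLS cells at 3 w.p.i. Cre was the tamoxifen-induced RosaCreER, which acts in all tissues, in the groups without a time label, which were taken at 3 weeks, and in the mice analysed at 3 d.p.i. DKO mice carried Mx1Cre, which acts mainly in blood cells and was induced with the double-stranded RNA pI:pC. The methods name Mx1Cre for the KLS cells of the RNA-seq at 3 w.p.i. and do not name the driver of the other KLS ATAC-seq libraries. Treatment usually began when mice were 5 to 11 weeks old. Each of the 11 groups had 2 or 3 libraries but only 1 peak list, and the spread between libraries is therefore unknown for presence, width and strength.

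A promoter is the stretch of DNA around a gene's start site where transcription factors and RNA polymerase assemble. Active promoters lose or shift the nucleosome at the start site, which opens the DNA to the transposase. In mammals, promoters rich in the dinucleotide CpG are often open in most cell types and serve genes that every cell needs, whereas CpG-poor promoters more often open in particular lineages. Daxx is a chaperone that deposits histone H3.3, and Pu.1, encoded by Spi1, is a transcription factor of myeloid and lymphoid cells.

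Sequences of strong and weak shared promoter peaks are given here to show what they hold. Each is the plus-strand or minus-strand DNA, read in the direction of the gene, of up to 150 bases before the start site, outside annotated exons, from the RefSeq copy of GRCm38.p6, whose coordinates are those of mm10. Capitals mark 6 motifs on either strand: GCGCATGCG (NRF1), AAGATGGCG (YY1), CCGGAAGT (ETS family), CCAAT (NF-Y), GGGCGG (the GC-box of the Sp factors) and GAGGAAGT (Pu.1). The ETS and Pu.1 letters share their last 6 bases, and the NRF1 letters overlap their own reverse complement, so that 1 run can hold both. Daxx is shown as the targeted gene (chr17:33909318-33909413, plus strand, the bases between the start of the divergent gene BC051226 and its own). Kifap3 (chr1:163779433-163779582, plus), Mrps9 (chr1:42851083-42851232, plus) and Golph3l (chr3:95588784-95588933, plus) are shown as 3 of the strongest. Nfxl1 (chr5:72559685-72559834, minus) and Lcmt1 (chr7:123377832-123377981, plus) are the strongest whose printed stretch holds the NRF1 and the ETS letters. Relt (chr7:100856303-100856452, minus), picked after its values were seen, holds the Pu.1 letters and lost accessibility in DKO cells. Abhd15 (chr11:77514971-77515120, plus) and a start site inside Plec (chr15:76199407-76199548, minus) are shown as 2 of the weakest.
Daxx: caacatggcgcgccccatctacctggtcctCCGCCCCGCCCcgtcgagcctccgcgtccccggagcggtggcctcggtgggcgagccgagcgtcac
Kifap3: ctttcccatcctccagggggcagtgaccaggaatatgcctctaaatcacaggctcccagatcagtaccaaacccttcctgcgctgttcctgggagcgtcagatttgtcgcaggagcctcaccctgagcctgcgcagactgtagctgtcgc
Mrps9: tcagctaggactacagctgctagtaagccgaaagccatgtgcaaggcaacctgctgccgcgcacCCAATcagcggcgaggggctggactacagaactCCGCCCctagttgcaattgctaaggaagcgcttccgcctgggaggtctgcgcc
Golph3l: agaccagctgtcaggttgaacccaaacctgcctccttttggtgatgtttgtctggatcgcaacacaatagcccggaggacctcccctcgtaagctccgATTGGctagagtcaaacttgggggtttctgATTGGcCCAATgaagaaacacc
Nfxl1: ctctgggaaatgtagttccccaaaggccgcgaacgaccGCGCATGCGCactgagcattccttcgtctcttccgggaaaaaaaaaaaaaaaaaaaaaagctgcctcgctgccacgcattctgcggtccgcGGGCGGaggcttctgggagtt
Lcmt1: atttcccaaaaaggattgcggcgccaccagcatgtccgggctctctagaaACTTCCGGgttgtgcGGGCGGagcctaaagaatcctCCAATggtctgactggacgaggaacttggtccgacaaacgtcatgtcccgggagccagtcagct
Relt: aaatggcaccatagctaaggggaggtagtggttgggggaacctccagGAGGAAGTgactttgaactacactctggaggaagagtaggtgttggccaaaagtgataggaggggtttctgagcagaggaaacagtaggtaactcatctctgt
Abhd15: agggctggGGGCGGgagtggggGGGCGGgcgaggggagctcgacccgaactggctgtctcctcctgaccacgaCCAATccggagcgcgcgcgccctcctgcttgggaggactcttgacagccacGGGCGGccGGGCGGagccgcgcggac
Plec: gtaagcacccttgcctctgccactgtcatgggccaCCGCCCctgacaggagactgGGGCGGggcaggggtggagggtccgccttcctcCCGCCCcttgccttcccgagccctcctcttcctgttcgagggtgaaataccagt

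Strong promoters did not all hold these letters. Kifap3, which encodes a kinesin-associated protein, held none of the 6 motifs in this stretch. Golph3l, which encodes a Golgi protein, held CCAAT or its reverse complement 3 times. Both weak promoters held the GC-box several times, with 4 copies at Abhd15 and 3 at Plec. No match says only that these letters are not in this window.

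Most open promoters of DKO cells were shared by all lists. The exact 95% binomial interval of the share of 89.0%, which covers counting error only, was 88.5 to 89.6%. Of the peaks of the DKO list farther from a start site, 4414 were present in all 11 lists and 5474 were not. A further 401 promoter peaks of the DKO list were missing from exactly 1 other list, most often from KLS Daxx-WT (131), GMP Daxx-KO (94) or LT-HSC Daxx-WT at 3 d.p.i. (57), and 104 were in no other list. With 22156 peaks the DKO list was shorter than any other (33325 to 70455), so the set is limited by what was called there. In the opposite direction, 1099 protein-coding genes had a promoter peak in every list except that of DKO cells, and 6285 of 21938 had none in any list. At the distance limit, the intervals just inside lay 996, 993 and 990 bp from a start site (Gm47964, Zkscan17 and Adgre5), and the nearest outside lay 1001, 1002 and 1003 bp away.

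The shared peaks were overwhelmingly promoters of protein-coding genes, and many served a pair of them. A start site of a protein-coding gene lay within 1 kb for 94.4% (10314), whether or not it was the nearest. Without one, a lincRNA or antisense gene had a start there for 3.81%, and only another class for 1.76%. Among the 1346 promoter peaks of the DKO list that were missing from at least 1 list, these shares were 72.9%, 13.6% and 13.5%. A start site lay inside the interval for 93.1% of the shared peaks and for 55.1% of the others. Divergent pairs, meaning 2 protein-coding genes on opposite strands whose starts lie within 1 kb of each other, made up 1096 of the shared peaks and 1.11% of the others. Chromosome X carried 2.38% of the shared peaks and 4.32% of the protein-coding genes, and chromosome Y carried no shared peak and 0.834% of the protein-coding genes.

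Genes for the machinery of every cell had a shared promoter peak almost without exception. Over all protein-coding genes the share was 48.9% (10731 of 21938), and the counts below are read beside it. All 77 genes of cytosolic ribosomal proteins, all 75 of mitochondrial ribosomal proteins and all 36 aminoacyl-tRNA synthetases found in the annotation had one. So did all 28 RNA polymerase subunits and the 7 listed subunits of the CCT chaperonin. All 39 replication licensing factors and polymerases and all 30 DNA repair genes had one too. Of the proteasome, 37 of 39 genes had one, and the exceptions, Psma8 and Psmb11, encode subunits of the testis and thymus forms. Of the respiratory chain and ATP synthase, 87 of 93 did, and the exceptions Cox4i2, Cox6a2, Cox8b, Cox8c, Cox7b2 and Ndufa4l2 are isoforms or relatives used in particular tissues or conditions. Splicing factors (53 of 55, without Srsf12 and Sf3b5), translation initiation factors (46 of 51, without Eif4enif1, Eif3j2, Eif2s3y, Eif4e1b and Eif4ebp3), Mediator subunits (28 of 30, without Med13l and Med12l) and nucleoporins (18 of 21, without Nup210l, Nup160 and Nup62cl) were close behind.

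Chromatin genes were almost as complete. Polycomb and trithorax subunits had a shared promoter peak for 19 of 20 genes, Pcgf2 being the exception. Genes of DNA methylation and H3K9 silencing had one for 18 of 20. Ehmt2, an H3K9 methyltransferase, and Tet1, which oxidises methylated cytosine, had a promoter peak in the other 10 lists but not in that of DKO cells. Daxx and its H3.3 and PML body partners had one for 13 of 14 genes. Pml was the exception, although each list held a promoter peak of it, because no single DKO interval met the rule. Replication-dependent histones had one for 55 of 67 genes and the numbered Zfp zinc finger genes for 257 of 365.

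Blood lineage genes were more divided. Of the heptad of factors that bind together in stem cells, Gata2, Lmo2, Lyl1 and Runx1 had a shared promoter peak, whereas Erg, Fli1 and Tal1 had one in the other 10 lists but not in that of DKO cells. Self-renewal factors had one for 13 of 18 genes. Hoxa9, Hoxa10 and Gfi1b again lacked the DKO peak only, Prdm16 lacked it together with GMP Daxx-KO, and Hoxa5 was missing from 4 lists. Granulocyte and monocyte fate factors had one for 12 of 18 genes. Irf4, Irf8 and Zeb2 lacked the DKO peak only, Cebpb lacked that of LT-HSC Daxx-KO, Cebpe was in 7 lists and Csf1r in 3. Erythroid and megakaryocyte genes had one for 4 of 15 (Klf1, Nfe2, Gp9 and Itga2b), surface genes used for sorting for 3 of 10 (Kit, Flt3 and Fcgr3), and interferon-stimulated genes for 15 of 24. None of the 15 granule genes, which encode the stored proteases and antimicrobial proteins of neutrophils, had one. Among them Elane was in the 2 GMP lists alone, Mpo in 8 lists, and Lyz2, Mmp9 and Prtn3 in 10.

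Genes of other tissues were nearly all outside the set. No neuronal gene of 18 and no liver gene of 16 had a shared promoter peak. The single cases were Ckm, the muscle creatine kinase (1 of 15), Krt8 among 49 keratins, Olfr552 among 1092 olfactory receptors and Vmn1r4 among 326 vomeronasal receptors. Of 20 lymphoid genes, Pax5, Gata3 and Foxp3 had one. As a check of the sorted cells, the promoters of Kit, Flt3, Gata2, Meis1, Csf3r and Cebpa were open in every list. Other markers of such cells were not: Cd34 and Ptprc were in 10 lists, Cd48 in 9, Slamf1 in 5 and Ly6a, which encodes the Sca-1 antigen of the sort, in none. Cd79a, Cd3e, Cd8a, Ncr1, Hbb-bt, Ly6g, Alb and Krt14, which mark B, T, natural killer, erythroid, neutrophil, liver and skin cells, also had none, whereas S100a8 was in 4 lists and the neuronal gene Snap25 in 10.

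**Figure D1:**
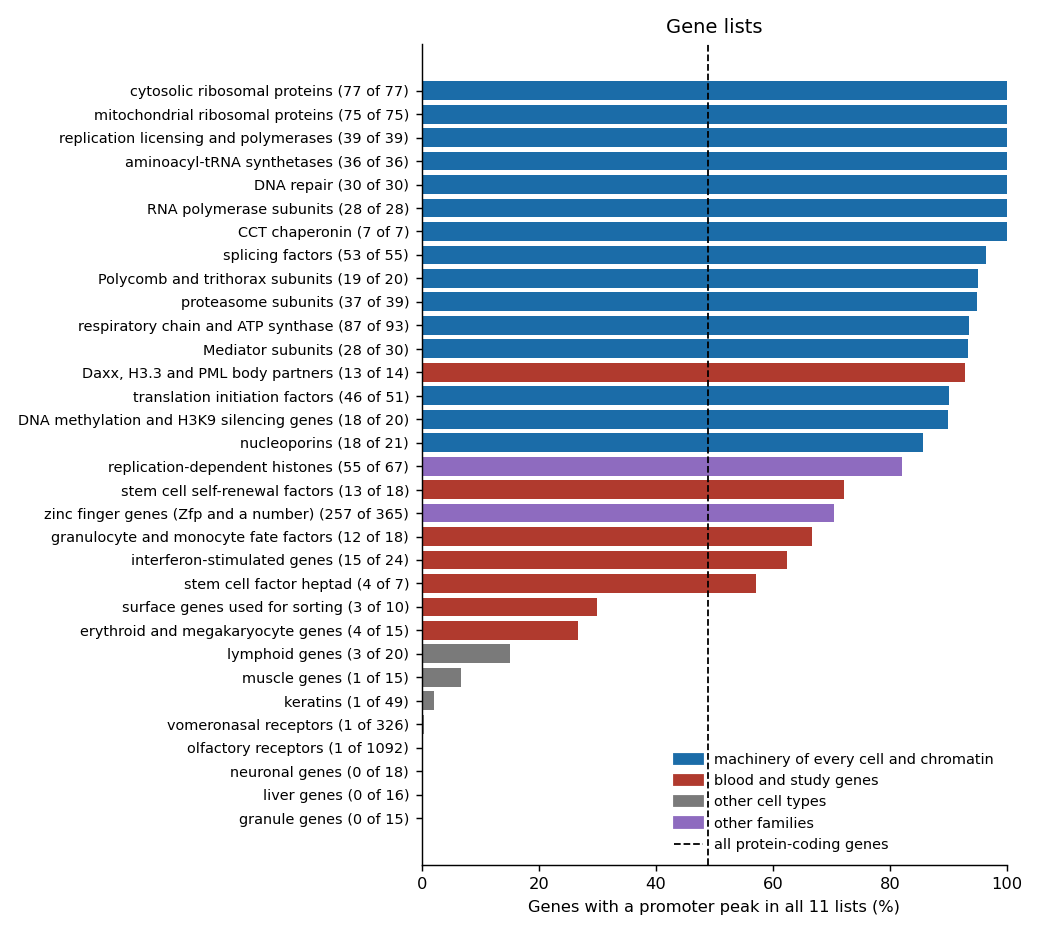
Share of the genes of each list (percent, x axis) that had a promoter peak present in all 11 lists, with the counts beside the list names and colours by kind of list. The dashed line is the share over all protein-coding genes, 48.9%. Ribosomal, synthetase, replication and repair genes reach 100%, whereas granule, neuronal and liver genes are at 0.

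The shared promoter peaks were wide, and widest in LT-HSCs. Their median width was 998 bp in the DKO list (range 200 to 3249 bp), against 633 bp for the other promoter peaks and 649 bp for distal peaks present in all lists. At the same places the median was 1393 bp in LT-HSC Daxx-WT and 1446 bp in LT-HSC Daxx-KO, 1276 and 1339 bp at 3 d.p.i., 1141 and 1078 bp in CMPs, 1099 and 1048 bp in GMPs, and 1158 and 1240 bp in KLS cells. Daxx-KO medians were therefore above Daxx-WT medians in LT-HSCs and KLS cells and below them in CMPs and GMPs, with 1 list each and no test. The median over all peaks of a list ran from 607 to 944 bp and was 785 bp in DKO cells. The length of the lists differed too, and its part in the widths was not tested.

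**Figure D2:**
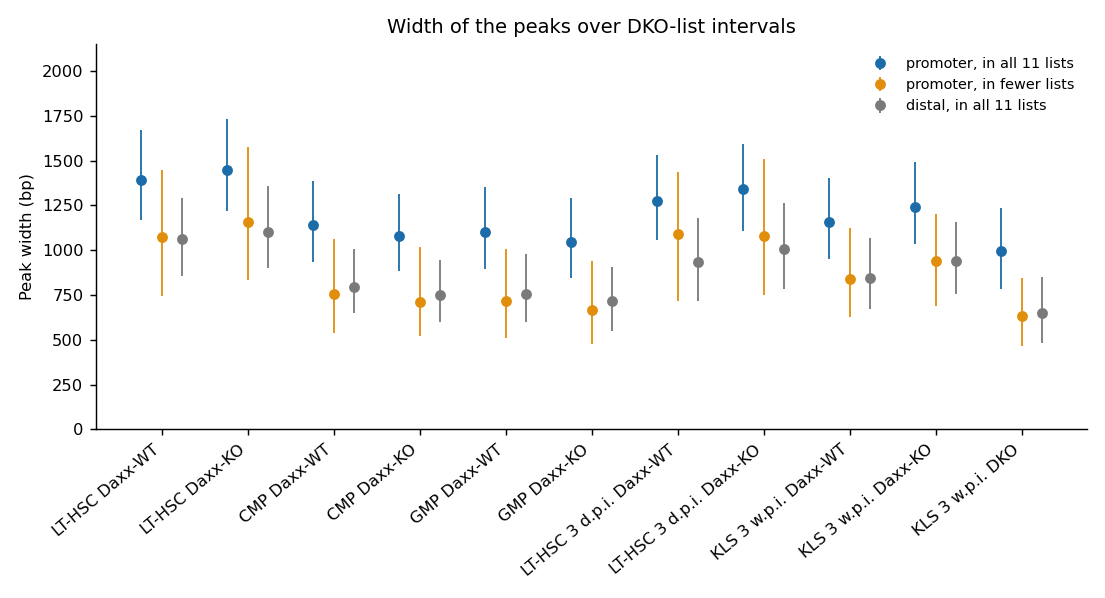
Peak width in bp (y axis) in each of the 11 lists at shared promoter peaks, at other promoter peaks of the DKO list and at distal peaks present in all lists. Points are medians and bars run from the lower to the upper quartile over peaks, and for the promoter peaks in fewer lists only those with a peak in the list are counted. The shared promoter peaks lie highest in every list, from 998 bp in DKO cells to 1446 bp in LT-HSC Daxx-KO.

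The 5 widest intervals of the DKO list were at Ppp2r3d (3249 bp), Tsc22d2 (3073 bp), the glucocorticoid receptor gene Nr3c1 (3052 bp), the AP-1 gene Jun (3029 bp) and Arid1b (2889 bp), a subunit of BAF remodelling complexes. They were wide rather than strong, with mean strength percentiles between 27.4 and 36.1 on the scale explained next. Wide intervals also held many summits, 7 at Ppp2r3d and 9 at Nr3c1. Over all shared promoter peaks, 29.2% had 1 summit, 39.4% had 2 and 21.2% had 3.

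The highest summit sat just upstream of the nearest start site. For each peak the annotated start nearest to the DKO summit was taken, with starts of protein-coding genes first. The distances are therefore short in part by that choice. The median distance of the highest summit was -28 bp in the DKO list and -31 to -33 bp in the other 4 lists that give summits. Of the highest summits, 68.8 to 73.6% lay within 100 bp of that start. In the other promoter peaks of the DKO list 33.6% did. In each of the other 4 lists, 84.5 to 87.3% of the shared peaks had their highest summit within 50 bp of that in DKO cells.

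Strength was read from the fold enrichment of each peak over background, a column of 5 of the deposited lists (LT-HSCs at 3 d.p.i. and KLS cells). Fold enrichment depends on the depth and background of a list, so each value was also turned into a percentile among all peaks of its own list. The median fold enrichment of the shared promoter peaks was 9.69 in LT-HSC Daxx-WT and 10.3 in Daxx-KO at 3 d.p.i., 7.58 in KLS Daxx-WT, 8.77 in KLS Daxx-KO and 6.30 in DKO. As percentiles these were 81.3, 83.3, 77.1, 79.8 and 71.8. The promoter peaks in fewer lists had a median percentile of 21.2 in DKO cells and the distal peaks present in all lists 40.6. Among promoter peaks alone the percentiles of the shared ones were between 55.2 and 68.3, since most promoter peaks of a list are shared.

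The strongest open regions of DKO cells were nearly all shared promoters. In the top 10% of the DKO list by fold enrichment, 93.8% of all peaks were shared promoter peaks, against 17.8% in the bottom 10%. In the other 4 lists the top 10% held 70.9 to 85.3%. The same promoters were strong or weak across lists: Spearman's rho between lists over the 10922 peaks ran from 0.76 (DKO with KLS Daxx-KO) to 0.95 (the LT-HSC genotypes), a description over peaks that share sequence and mappability. A percentile of 50 or more in all 5 lists was reached by 67.3% (7355), 812 peaks were below 50 in all 5, and 1243 were in the top 10% of each.

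**Figure D3:**
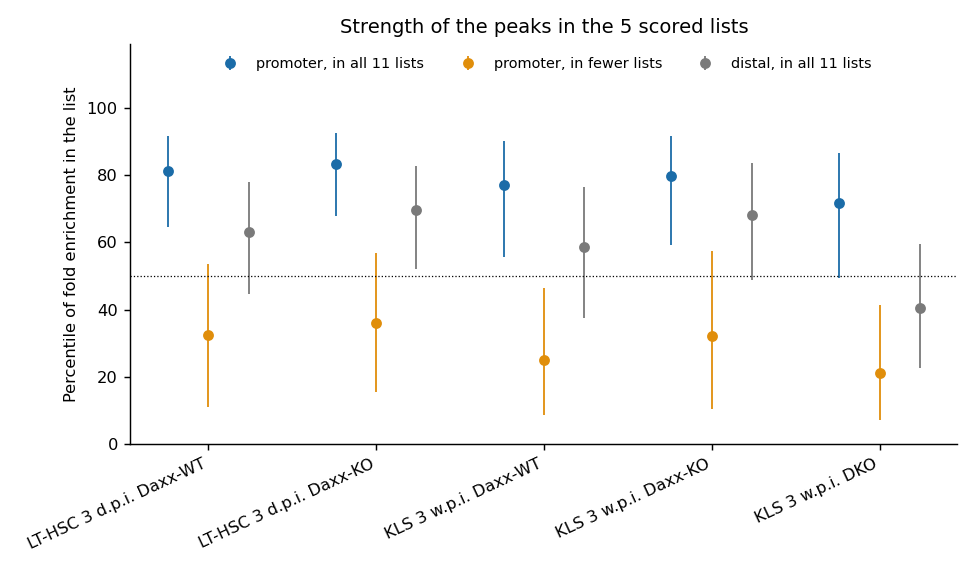
Percentile of fold enrichment within each of the 5 scored lists (y axis, 0 to 100) for shared promoter peaks, other promoter peaks of the DKO list and distal peaks present in all lists. Points are medians, bars run from the lower to the upper quartile over peaks, and the dotted line marks 50. The shared promoter peaks lie highest in each list, from a median of 71.8 in DKO cells to 83.3 in LT-HSC Daxx-KO.

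The 5 peaks with the highest minimum percentile were at Gm24187, Kifap3, 2610005L07Rik, Mrps9 and Pnpt1. At Kifap3 (chr1:163779261-163780034) the fold enrichment was 17.7, 18.3, 15.4, 16.4 and 13.2 in the order LT-HSC Daxx-WT, LT-HSC Daxx-KO, KLS Daxx-WT, KLS Daxx-KO and DKO. At Mrps9 (chr1:42851013-42851792), a protein of the small mitochondrial ribosomal subunit, it was 17.97, 18.4, 13.3, 15.1 and 11.9. Both peaks were therefore in the top 1 percent of every list although their values differed between lists. Gm24187 is a gene of another class whose summit window consisted of 31.7% repeat bases, and reads there can be hard to place.

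The 5 peaks with the lowest maximum percentile were at Kcnn4, Abhd15, Xpo1, 9130213A22Rik and Nfe2. The interval at Xpo1 lay 719 bp from the nearest annotated start, whereas the others covered one. At Kcnn4, a calcium-activated potassium channel gene (chr7:24369723-24370561), the fold enrichment was 2.25, 2.62, 2.56, 2.88 and 2.76 in the same order. At Nfe2, a transcription factor of megakaryocytes and erythroid cells (chr15:103255119-103255599), it was 2.58, 2.72, 2.66, 3.26 and 2.63. These peaks were present in every list and close to the bottom of each scored one. Nfe2 also had a second shared peak upstream (chr15:103257873-103258791) that was strong, with a mean percentile of 72.4.

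Within the gene lists, machinery and lineage factors differed in strength as well as in presence. The median of the mean percentile over the 5 lists was 91.6 for the aminoacyl-tRNA synthetases, 90.6 for replication factors, 90.2 for the proteasome, 85.9 for mitochondrial and 81.4 for cytosolic ribosomal proteins. It was 50.2 for the histones, 47.1 for the granulocyte and monocyte fate factors, 43.4 for the self-renewal factors and 36.0 for the heptad. Each list spanned a wide range. Among cytosolic ribosomal proteins Rpl34 was highest at 98.1, and among mitochondrial ones Mrps9 was at 99.9 and Mrps34 at 15.5. Among the self-renewal factors Hoxa7 was lowest at 23.5. Among the fate factors Egr2 reached 76.2 and Gfi1 had 8.1. Of the heptad members, Lmo2 was highest at 45.5 and Lyl1 lowest at 17.6. Among the partners of Daxx, Sp100 of the PML body reached 96.8 and H3f3b, which encodes H3.3, had 53.9.

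Both targeted genes were among the shared promoters. The Daxx peak (chr17:33908352-33909963, 1612 bp) had fold enrichments of 12.1, 15.6, 8.01, 13.2 and 11.4 and a mean percentile of 94.5, so the promoter of the deleted gene remained a strong peak in the lists of both knockout genotypes. Spi1 had 2 shared peaks. That over its start site (chr2:91096337-91097504) had fold enrichments of 6.74, 6.79, 5.75, 8.16 and 5.52 and a mean percentile of 59.5, and the other (chr2:91082862-91083532), 454 bp from an annotated start, had a mean percentile of 50.9.

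The shared promoters were rich in CpG. In 300 bp around the highest DKO summit, the median GC content was 64.7%, against 53.3% in the other promoter peaks and 53.0% in distal peaks present in all lists. The median ratio of observed to expected CpG was 0.82, against 0.30 and 0.31. With CpG-rich defined as a ratio of at least 0.6 and a GC content of at least 50%, 79.8% of the shared promoter peaks qualified, against 21.2% of the other promoter peaks, 11.9% of the distal peaks and 33.5% of all 32851 RefSeq promoters of the same length. Presence in all lists chose the members, sequence did not, but no test was made because regions are not replicates.

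They also held more letters of the factors of broadly active promoters. The ETS letters were in 9.09% of the shared promoter peaks, 2.15% of the other promoter peaks, 1.81% of the distal peaks and 3.89% of all RefSeq promoters. In the same order, the NRF1 letters were in 4.05%, 0.371%, 0.861% and 1.75%, the YY1 letters in 4.16%, 0.223%, 0.544% and 1.40%, and the GC-box in 70.8%, 27.6%, 21.9% and 35.7%. CCAAT was in 37.7%, 27.1%, 27.8% and 37.4%, so its share was close to that of all promoters. The letters TATAAA of the TATA box ran the other way, with 3.81%, 8.25%, 7.07% and 13.6%. The Pu.1 letters were in 3.19%, 5.05%, 8.16% and 3.20%. All were searched on both strands, and letters in a window are not evidence of a bound factor.

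The stronger the shared peak, the more often it held most of these letters. The peaks were split by mean percentile into 4 bins of equal size. From the weakest to the strongest bin the CCAAT share was 27.2, 33.8, 39.3 and 50.3%, the ETS share 4.61, 7.99, 10.9 and 12.8%, and the share of divergent gene pairs 4.54, 8.39, 11.8 and 15.4%. The YY1 share went from 1.76 to 6.44%, the NRF1 share from 1.94 to 5.53% and the GC-box share from 63.0 to 76.8%. TATAAA went from 5.31 to 1.90% and the Pu.1 letters from 4.06 to 2.78%. Median GC content stayed between 63.7 and 65.3%, and median width went from 864 bp in the weakest bin to 1018 bp in the strongest.

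**Figure D4:**
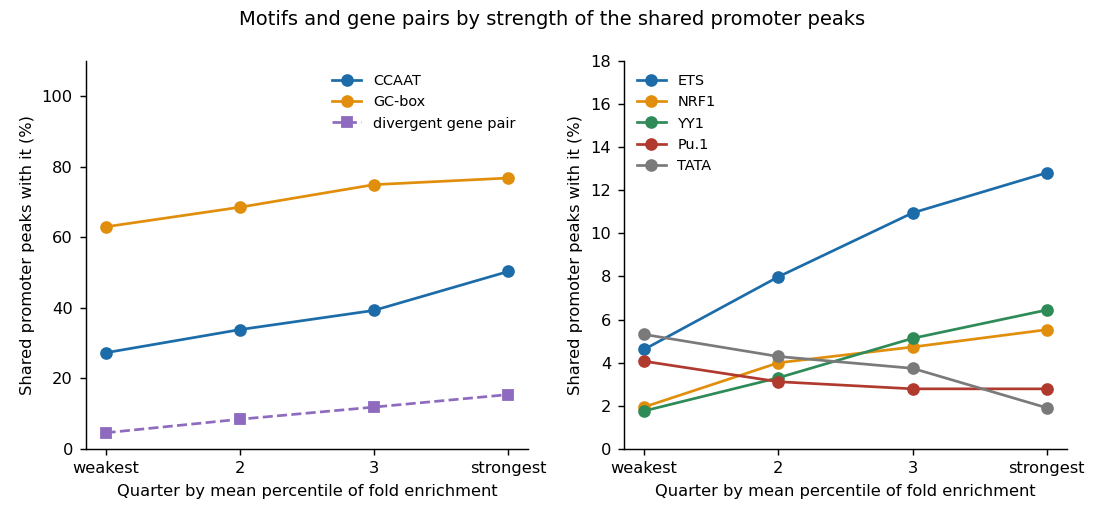
Percent of the shared promoter peaks (y axes, different scales) that hold each motif in 300 bp around the DKO summit, or that lie between a divergent pair of protein-coding genes, by bin of mean strength percentile from weakest to strongest (x axes, 2730 or 2731 peaks each). Across the bins CCAAT goes from 27.2 to 50.3% and ETS from 4.61 to 12.8%, whereas TATA goes from 5.31 to 1.90%.

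The letters were concentrated at particular places of the 10314 shared promoters of protein-coding genes. Positions were counted from 200 bp before to 100 bp after the start nearest to the DKO summit. Bins of 20 bp were used, which would each hold 6.67% of an even spread. The YY1 letters were most frequent 20 to 40 bp after the start, where 31.6% of their 465 occurrences fell, and 78.3% of the occurrences read in the direction of the gene. CCAAT peaked 60 to 40 bp before the start with 13.1%, and 14.7% of its occurrences lay after the start. NRF1 peaked in the same bin with 15.6%, ETS in the first 20 bp after the start with 19.4%, and TATAAA 40 to 20 bp before it with 19.2%.

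The deposited tables show where accessibility differed between genotypes at these promoters. Each of 3 tables lists sites selected for a difference by its makers, with the scaled reads of every library. The first sets Daxx-KO beside Daxx-WT in LT-HSCs 3 days after induction, the second does so in KLS cells 3 weeks after it, and the third sets DKO beside Daxx-WT in those KLS cells. The KLS tables share the same 2 Daxx-WT libraries. Libraries had 4.21 to 16.0 mean reads per window, highest in DKO replicate 2 and lowest in a Daxx-KO library of LT-HSCs. A site was counted as higher or lower by its group means. Accessibility in fewer cells and a lower accessibility in each cell cannot be told apart in these pooled cells. The libraries are described as independent biological samples or replicates. In the LT-HSC and KLS Daxx-KO tables, p-values set a difference against the spread between libraries. In the DKO table they follow the size of the difference only, as given below.

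Most shared promoters were under no listed site, and those that were lay mostly on the lower side in DKO cells. In all, 8708 shared promoter peaks (79.7%) were in no table. In the DKO table, 1444 (13.2%) lay under a lower site and 240 (2.20%) under a higher one, 7 of them under both, beside 10.9% lower and 18.6% higher over all 22156 peaks of the DKO list. The promoter peaks in fewer lists were the reverse, with 47 lower and 519 higher of 1346, but those intervals are by construction ones that other lists lack. Among distal peaks present in all lists 782 of 4414 were lower and 254 higher. In LT-HSCs, 284 shared promoter peaks (2.60%) were under a higher and 51 (0.467%) under a lower site, beside 3.19% and 1.12% over all peaks. In KLS Daxx-KO cells, 146 were under a higher and 197 under a lower site, beside 2.66% and 2.78%. Lower sites of the DKO table covered the DKO summit of the promoter in 53.3% of cases and higher ones in 25.1%. Of the lower sites of KLS Daxx-KO cells 4.04% covered it, and the others lay beside the summit. The 1444 lower promoters of DKO cells were spread over the strength bins, with 13.8, 13.6, 13.8 and 11.6% from the weakest to the strongest.

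The listed differences were fitted with limma on log2(scaled reads + 1), with p-values adjusted over every window tested for the table. For DKO against Daxx-WT the fit gave every site the same standard error (SE), 0.36 on the log2 scale. The p-values there follow the size of the difference and do not measure the spread between libraries at a site. In the DKO table, 67 of 243 higher sites over shared promoter peaks and 141 of 1481 lower ones passed an adjusted p of 0.05, beside 93.2% among all 36740 higher and 53.6% among all 14188 lower sites that the table lists. Their median difference was 0.86 for higher and -0.77 for lower sites on the log2 scale, against 1.45 and -1.04 over all sites. In the LT-HSC and KLS Daxx-KO tables none passed in either direction by limma. At an unadjusted p of 0.05, 112 of 286 higher and 45 of 51 lower sites passed in LT-HSCs, beside 88.7% and 99% of all listed sites of each direction. In KLS Daxx-KO cells 54 of 143 and 145 of 195 passed, beside 87.6% and 98.9%. Selection of the sites and the fit used the same libraries, so these p-values are not independent evidence.

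The calls of the DKO table depended on the scaling and on single libraries. Scaling each library to its mean reads per window moved the log2 differences of that table by -0.67, after which 0 higher and 1191 lower sites passed, and 208 sites were higher and 1516 lower by sign. Sites with at least a 2-fold difference numbered 73 higher and 160 lower before and 1 and 1481 after. The mean reads per window were 9.98 and 16.0 in the DKO libraries against 8.35 and 7.45 in the Daxx-WT libraries, and the part of this gap in the calls was not tested. The same scaling moved the LT-HSC and KLS Daxx-KO tables by 0.33 and 0.47. There the sites with at least a 2-fold difference went from 2 higher and 3 lower to 60 and 1 in LT-HSCs, and in KLS Daxx-KO cells the balance turned, from 3 higher and 36 lower to 111 and 2. Without DKO replicate 1 or without DKO replicate 2 no site over a shared promoter passed. Without Daxx-WT replicate 1, 25 higher and 32 lower passed, and without Daxx-WT replicate 2, 37 and 78.

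Stem cell factors were among the promoters that lost accessibility in DKO cells. The genes in this paragraph and the next belong to the gene lists and were picked after their values were seen. Meis1, a homeobox cofactor needed by stem cells, had 141 and 125 scaled reads in DKO against 373 and 293 in Daxx-WT libraries, so the groups did not overlap. It fell by 1.31 on the log2 scale (SE 0.36, limma adjusted p = 0.00429). Lyl1, a basic helix-loop-helix factor of the heptad, had 253 and 215 against 531 and 427 and fell by 1.03 (SE 0.36, limma adjusted p = 0.0461). The same direction without a call was seen at Gata2, with 170 and 148 against 367 and 218, and at Flt3, a cytokine receptor gene, with 161 and 147 against 290 and 277. In all, 6 of the 13 self-renewal factors with a shared promoter peak were under lower sites, Meis1, Mecom, Etv6, Mycn and Hoxa7 among them. So were 2 of the 4 such heptad members, a gene counting if any of its shared peaks was under such a site. None was under a higher site. The shares per peak were 13.2% lower and 2.20% higher over shared promoter peaks, and 10.9% and 18.6% over all peaks. With scaling to mean reads per window these log2 differences became more negative.

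Gfi1 and Tet3 gained accessibility beside their promoters, while other members of their lists lay on the lower side. Gfi1, a transcriptional repressor needed for neutrophils, had 193 and 189 scaled reads in DKO against 74.5 and 102 in Daxx-WT libraries and rose by 1.12 on the log2 scale (SE 0.36, limma adjusted p = 0.0211). Tet3, which oxidises methylated cytosine, had 95.4 and 98.4 against 47.0 and 32.9 and rose by 1.28 (SE 0.36, limma adjusted p = 0.00569). Of the other granulocyte and monocyte fate factors Klf4, Egr1 and Csf2rb, and of the other DNA methylation and H3K9 silencing genes Cbx5 and Cbx3, were under lower sites, none of them called. The sites of Gfi1 and Tet3 did not cover the DKO summit, and both calls were lost with scaling to mean reads per window. Rpl36a and Mrps25, both ribosomal protein genes, were called higher by limma at 1.09 and 1.03, but 4 cytosolic (Rpl15, Rps3a1, Rpl34 and Rpl13a) and 4 mitochondrial ones (Mrps23, Mrpl43, Mrpl1 and Mrpl19) were under lower sites that were not called. Lsm11, which acts in histone mRNA processing, and the Mediator gene Med27 were called lower at -1.13 and -1.12. At Lsm11 the DKO libraries stood apart from each other, with 99.7 and 31.8 scaled reads against 122 and 128. A gene counts below if any of its shared peaks was under a site, whereas the share over all shared promoter peaks is per peak. It was 13.2% for a lower and 2.20% for a higher site. Beside that, 7 of 30 DNA repair, 6 of 53 splicing and 5 of 39 replication genes were under a lower and none under a higher site, and 36 of 257 zinc finger genes were under a lower and 4 under a higher one. Of the 87 genes of the respiratory chain 3 were under a lower and 2 under a higher site, of 77 cytosolic ribosomal genes 4 and 1, and of 75 mitochondrial ones 4 and 1. No shared promoter of the listed proteasome, CCT chaperonin or Polycomb and trithorax genes was under a site of the DKO table.

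The 4 largest differences of each direction over shared promoters in DKO cells were next. The DKO and Daxx-WT libraries did not overlap at any of these sites, by the rule that chose them, and every call to the higher side was lost with scaling to mean reads per window. Only the sites at Gm42642 and Clec12a covered the DKO summit, and the others lay beside it. Slc40a1, which encodes the iron exporter ferroportin, had 144 and 126 scaled reads against 33.7 and 52.6 in Daxx-WT and rose by 1.65 (SE 0.36, limma adjusted p = 0.000189). Anxa3, an annexin, had 105 and 104 against 20.4 and 63.6 and rose by 1.50 (SE 0.36, limma adjusted p = 0.000752). The other 2 sites of the largest higher difference were at the predicted genes Gm49359, where the Daxx-WT libraries had 3.55 and 21.9, and Gm42642. Clec12a, an inhibitory lectin receptor of myeloid cells, had 108 and 91.8 against 236 and 307 and fell by 1.42 (SE 0.36, limma adjusted p = 0.00154). Atp13a3, a polyamine transporter, had 109 and 123 against 359 and 324 and fell by 1.55 (SE 0.36, limma adjusted p = 0.000499). The site at E430024I08Rik fell by 1.40 from 33.7 and 27.4 to 10.6 and 11.2. At Relt, whose stretch with the Pu.1 letters is printed above, the values were 164 and 127 in DKO against 312 and 313 in Daxx-WT libraries, and it fell by 1.10 (limma adjusted p = 0.0249).

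**Figure D5:**
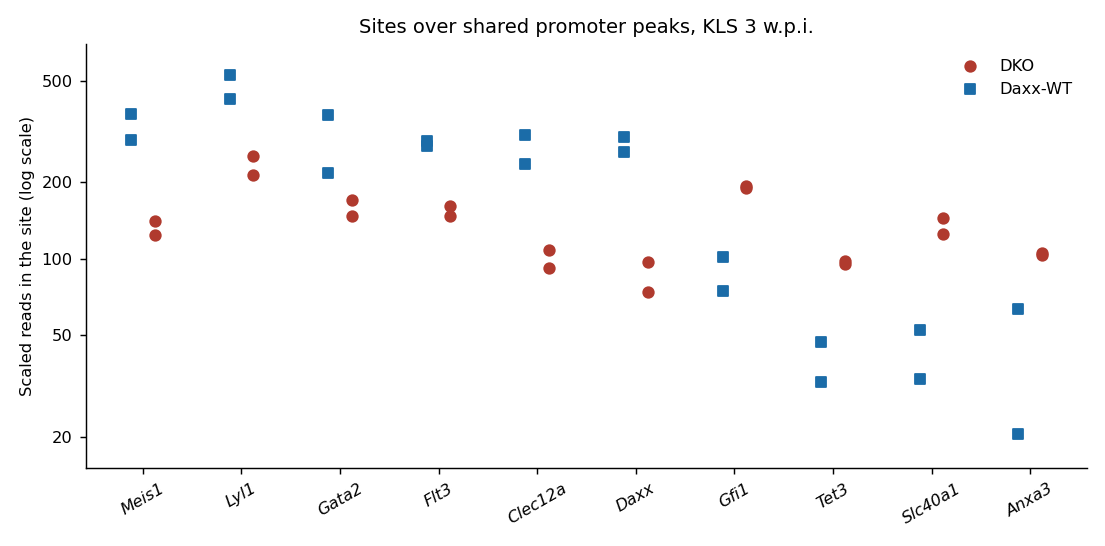
Scaled reads of each library (y axis, log scale) at sites over 10 shared promoter peaks in KLS cells at 3 w.p.i., with DKO libraries as circles and Daxx-WT libraries as squares, 2 of each. Meis1 to Daxx lie lower in both DKO libraries and Gfi1 to Anxa3 higher, with no overlap between the groups at any of the 10 sites. The sites of Daxx, Gfi1, Tet3, Slc40a1 and Anxa3 do not cover the DKO summit.

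As a group, promoters under lower DKO sites held the Pu.1 letters in 4.52% of 1437 cases, against 3.01% of the 9245 without a listed site. They held the ETS letters in 5.36% against 9.78%, and divergent pairs were 6.89% against 10.7%. Promoters under higher sites had similarly few of both, with ETS letters in 5.15% and divergent pairs in 4.29% of 233, and the Pu.1 letters in 2.15%. The median strength percentile of promoters under lower sites was 62.1 in the DKO list and 78.7 in the Daxx-WT list of KLS cells. It was 61.1 and 63.3 for those under higher sites, and 73.2 and 77.1 for those without a site. Strength in these lists and the listed difference come from the same libraries, so these values are a description.

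In LT-HSCs at 3 d.p.i., histone genes were frequent among the higher sites. Of 41 shared promoter peaks of replication-dependent histone genes, 20 (48.8%) were under 19 higher sites, beside 3.19% of all peaks. Their differences ran from 0.18 to 0.84 with a median of 0.47 on the log2 scale, and at all 19 the 3 Daxx-KO libraries were above both Daxx-WT libraries. None passed limma (smallest adjusted p = 0.391), and 6 passed an unadjusted p of 0.05. In KLS Daxx-KO cells 6 of the 41 (14.6%) were under higher sites, beside 2.66% of all peaks. In DKO cells 3 of the 41 were under lower sites and 0 under higher ones, beside 13.2% and 2.20% of all shared promoter peaks. The largest differences on the higher side were at Gm45844, with 1166, 1196 and 997 scaled reads in the Daxx-KO libraries against 421 and 323, and at Rab28, a small GTPase gene, with 36.7, 40.1 and 29.6 against 14.7 and 17.8. These had log2 differences of 1.60 (SE 0.24) and 1.08 (SE 0.24), each with a limma adjusted p of 0.301. Rnf207 and Kdm6a, an H3K27 demethylase gene, followed at 0.96 and 0.95. On the lower side, after Daxx, were Gm15247 at -1.22, Slc23a2, an ascorbate transporter gene, at -1.17 and Mid1 at -0.94. Among these largest differences of either direction, only the sites at Gm45844 and Mid1 covered the DKO summit.

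In KLS Daxx-KO cells the lowest sites after Daxx lay at Ccz1, Borcs7 and Mrpl27, and none was called. Ccz1, of a complex that activates Rab7, had 22.3, 8.75 and 8.47 scaled reads in the Daxx-KO libraries against 38.3 and 36.7 in Daxx-WT, a log2 difference of -1.58 (SE 0.43, limma adjusted p = 0.287). Borcs7 and the mitochondrial ribosomal gene Mrpl27 had differences of -1.34 and -1.32. Each of these sites had few reads and none covered the summit. On the higher side were Gm45844 at 1.30, Slc35a3, a nucleotide sugar transporter gene, at 1.15, Gm10505 at 1.01 and Mfsd4a at 0.99, none of which passed.

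In all, 18 shared promoters were in both Daxx-KO tables, 5.37% of those in the LT-HSC and 5.28% of those in the KLS table. Over all shared promoters 3.12% were in the KLS and 3.07% in the LT-HSC table. Of the 18, 12 were higher in both, 2 lower in both and 4 higher in LT-HSCs and lower in KLS cells. The LT-HSC and DKO tables had 61 in common, 18.2% of those in the first and 3.64% of those in the second. These shares were near those over all shared promoters, 15.4% in the DKO and 3.07% in the LT-HSC table. Of the 61, 12 were higher in both, 13 lower in both, 34 higher in LT-HSCs and lower in DKO cells, and 2 the reverse. The KLS tables share their Daxx-WT libraries, and their overlap is not given. The 6 in all 3 tables were Daxx, Gm10505, Hyi, Gm43094, Gm45844 and Ppp2r3d. Gm45844 was on the higher side in each, with log2 differences of 1.60, 1.30 and 0.83, whereas Hyi was at 0.68 in LT-HSCs and at -0.68 and -0.78 in the KLS tables. Daxx had the lowest difference over shared promoters in all 3. Its site had 69.7, 109 and 61.2 scaled reads in the Daxx-KO libraries of LT-HSCs against 201 and 366 in Daxx-WT, and 54.6, 90.1 and 61.2 against 255 and 295 in KLS cells. In DKO cells it had 97.6 and 74.0 against 263 and 302. The log2 differences were -1.79, -2.02 and -1.72, with limma adjusted p-values of 0.301, 0.284 and 9.9e-05. In each table the site began in the downstream part of the promoter peak, ran into the gene, whose exons 2 to 7 are floxed, and did not cover the summit.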

How the data were processed

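ATAC-seq libraries of sorted mouse bone marrow progenitors were analysed from 11 peak lists and 3 tables of differential sites. Per the submitters' processing notes, CASAVA 1.8.4, cutadapt 1.13, STAR 2.5.3 and bedtools were used with genome mm10. The peak caller is not given in the sources used here. The authors deposited 1 list per group, 6 with positions only and 5 with a score, a fold enrichment (a ratio of peak to background signal), and −log10 p-values and q-values. The fold enrichment was used, and the score only for a stricter threshold. The 5 lists with a score are by their names conservative ones made by reproducibility between replicates (IDR). The names of the other 6 do not say so. The tables, made with diffReps per the file headers, hold the scaled signal (reads divided by a constant per library) of each library at each listed site. Their mean, fold change, p-value and direction columns are the authors' own comparisons and were not used. Raw counts were not given as a column of their own, so no count test was run, although scaled values multiplied back gave whole reads for 100% of the values below 20 reads (tolerance 0.15).

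Intervals repeated for several summits were merged into 1 and given their highest fold enrichment. Start sites came from GENCODE (mm10), and a promoter peak was within 1 kb of one. Sequence was taken from the RefSeq copy of GRCm38.p6, in 300 bp around the highest DKO summit. Sites were fitted with limma 3.58.1 in R 4.3.3 on log2(scaled reads + 1), treated against control libraries within a table, with Benjamini-Hochberg adjustment over the 413247, 407030 and 446463 windows that the authors tested, each window outside the listed sites counting as p = 1, and a threshold of 0.05. In the DKO table the fit gave every site the same SE. Other steps used numpy 2.4.6, pandas 2.3.3, scipy 1.17.1, matplotlib 3.10.9 and pysam 0.24.0, and the site fit was tested on simulated data. Depth was 4.21 to 16.0 mean reads per window, and binomial intervals cover counting error only.

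The named genes were the targeted genes, the highest and lowest of each gene list by mean percentile and its genes without a shared peak, the 4 largest differences in each direction per table among sites whose libraries did not overlap, members in all 3 tables, the 5 highest by minimum and the 5 lowest by maximum percentile, the 3 on each side of the distance limit, and the 5 widest. A few of these are not reported here. Others are said to have been picked after their values were seen. The members, gene lists and rules were chosen with earlier results of these data known. Alternatives were the distance and overlap limits, the strength measure, the sequence window, the pseudocount, the scaling, the adjustment, a replicate block and leaving out each library. Labels give every 3 d.p.i. control as Daxx +/+, whereas a legend of the study gives 1 of them as Daxx +/F.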

Additional observations from a re-analysis of the deposited data

How the results depend on the processing

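The number of shared promoter peaks was between 10599 and 11376 under the alternatives of distance and overlap, 10300 with a stricter score and 10015 with protein-coding transcripts only. No result reversed. Among promoter peaks alone, the median strength percentiles were 66.0, 68.3, 62.4, 65.8 and 55.2 in the order of the report. Requiring a site to cover at least 50% of the peak left 136 higher and 11 lower members in LT-HSCs, 81 and 13 in KLS Daxx-KO and 67 and 743 in DKO cells. In KLS Daxx-KO cells this turned the balance, which was 146 higher and 197 lower without the requirement. Over whole intervals the median GC was 60.8%, the CpG ratio 0.74 and the CpG-rich share 75.8%. Calls adjusted over the listed sites only, which are fewer tests, were 106 higher and 43 lower in LT-HSCs, 51 and 144 in KLS Daxx-KO and 201 and 1008 in DKO cells. A pseudocount of 5 gave 1 and 3 in KLS Daxx-KO and 105 and 385 in DKO cells, and scaling to mean reads per window gave 0 and 1191 in DKO cells; the cause was not tested. Leaving out 1 library gave 0 to 37 higher and 0 to 78 lower calls in DKO cells, where a lone library was assumed to vary like the others. Libraries with the same number did not deviate together (correlations of 0.0084 and 0.052 in KLS Daxx-KO and -0.0031 in DKO), so they share only a number. With the replicate block there were 0 higher and 1 lower call in KLS Daxx-KO, the latter at Daxx (limma adjusted p = 0.013), and 76 and 175 in DKO cells. The LT-HSC libraries carry no numbers in the table, so no block was fitted. Of 381 values for named sites under alternatives, 331 kept their side of the threshold, 22 lost the call and 28 gained one.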
